A study of Mus musculus with 4 samples.

Results

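The 10 genes described here make up the insulin-like growth factor (IGF) system of these libraries: the ligands Igf1 and Igf2, the receptors Igf1r and Igf2r, and the binding proteins Igfbp2, Igfbp3, Igfbp4, Igfbp5, Igfbp6 and Igfbp7. They were taken by symbol from the 32285 mouse genes counted, and all 10 had UMIs (unique molecular identifiers, tags that count RNA molecules) in each of the 4 single-cell libraries. Their measured levels played no part in the choice.

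The libraries are the growth plate of 1NMPP1-treated mice, the growth plate of vehicle-treated mice, the dorsal root ganglia of 1NMPP1-treated mice and the dorsal root ganglia of vehicle-treated mice, with 1 library each. All mice, vehicle arm included, have an altered allele of a receptor kinase found on sensory neurons, which makes that kinase sensitive to 1NMPP1, so the arms differ in the compound and not in the allele. 1NMPP1 was injected at 17 µg per g body weight 48 h and 2 h before surgery and then given at 40 µM in the drinking water, while controls received vehicle with DMSO. The growth plate is the cartilage that lengthens a bone; the end of the femur around an injured plate and lumbar ganglia, which hold the cell bodies of sensory neurons, were taken 7 days after injury and digested to single cells. The sources used here do not give the number, age or sex of the animals behind a library. With 1 library per group there is no replicate check and no test: intervals below are exact 95% intervals that cover counting error only, and no difference can be separated from a difference between animals or preparations.

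After filtering, 10547 and 8664 cells were kept in the 1NMPP1 and vehicle growth plate libraries, and 2150 and 2841 in the 1NMPP1 and vehicle ganglion libraries. Median depth was 7043 and 6518 UMIs per cell in growth plate and 7043 and 10378 in ganglia. Sex, called per cell from Xist and Y-linked genes, was also uneven: male-called cells made up 24.8% and 49.7% of growth plate cells, and 17.4% and 45.4% of ganglion cells, in 1NMPP1 and vehicle. Cells were clustered within a tissue, and clusters were named from marker genes as, for example, fibroblast-like, with the 10 genes left out of the genes that shaped the clusters. The growth plate libraries were mostly marrow: neutrophil-like cells were 53.8% and 51.0% of cells, and chondrocyte-like cells 0.417% and 1.11% (44 and 96 cells). The ganglion libraries held 53 and 93 sensory neuron-like cells and many blood cells. The vehicle ganglion library also held 57 chondrocyte-like and 10 osteoblast-like cells, types of bone rather than of ganglia, and the 1NMPP1 ganglion library held 0 of each.

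IGF1 and IGF2 are small secreted proteins related to insulin. Both signal through the receptor kinase encoded by Igf1r, which turns on the PI3K and AKT pathway, whereas Igf2r binds IGF2 without such a kinase, takes it into the cell and carries it to lysosomes. The binding proteins hold most IGF outside cells, prolong its life or keep it from the receptor, and proteases release it from them; Igfbp7 is a distant relative that binds IGF weakly. In the growth plate, IGF1 made under growth hormone and by local cells promotes chondrocyte growth, and in ganglia IGFs are known as growth and survival factors for neurons and glia.

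In the mouse genome (GRCm38/mm10, GENCODE M21) the genes are spread over 7 chromosomes. Igf1 lies at chr10:87858265-87937042, Igf1r at chr7:67952827-68233668, Igf2r at chr17:12682406-12769664, Igfbp3 at chr11:7206086-7213923, Igfbp4 at chr11:99041244-99054392, Igfbp6 at chr15:102144362-102149511 and Igfbp7 at chr5:77349240-77408041. Igfbp2 (chr1:72824503-72852474, plus strand) and Igfbp5 (chr1:72857932-72874884, minus strand) are neighbours whose 3′ ends face each other across 5.46 kb. Igf2 (chr7:142650766-142666816, minus strand) is 72.6 kb from H19, a non-coding RNA of the same imprinted domain. Igf1, Igf2, Igf2r and Igfbp7 overlap counted genes on the other strand, namely Igf1os, Igf2os, Airn, and Polr2b with Gm34648; the sources do not say whether counting used strand, so reads of these overlaps could be shared.

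Over the 35 cell classes of at least 50 cells, the members whose levels followed each other most closely were Igf2 and Igfbp6 (Pearson r = 0.94 of log2(CPM + 10), CPM being the UMIs of a gene scaled to 1e6 UMIs of the class), Igfbp5 and Igfbp6 (r = 0.77) and Igf2 and Igfbp5 (r = 0.76), a description in which ganglion fibroblast-like cells had the highest level of each of the 3 genes. The 250 bases before a RefSeq start of each (GRCm38.p6) are printed for that reason, 5′ to 3′ on the strand of the gene, with matches to short promoter motifs in capitals.
Igf2, chr7:142657497-142657746, minus strand, the most downstream of 4 starts: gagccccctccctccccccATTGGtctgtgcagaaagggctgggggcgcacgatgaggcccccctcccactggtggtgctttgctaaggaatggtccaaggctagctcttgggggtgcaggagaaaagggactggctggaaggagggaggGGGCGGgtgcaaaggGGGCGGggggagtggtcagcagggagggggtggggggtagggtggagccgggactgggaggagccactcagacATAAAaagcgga
Igfbp5, chr1:72874866-72875115, minus strand: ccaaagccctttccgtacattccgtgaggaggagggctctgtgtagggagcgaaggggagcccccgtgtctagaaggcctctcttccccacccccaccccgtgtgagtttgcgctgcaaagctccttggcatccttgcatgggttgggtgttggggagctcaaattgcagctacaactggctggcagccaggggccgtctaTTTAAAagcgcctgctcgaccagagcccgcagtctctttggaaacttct
Igfbp6, chr15:102143936-102144185, plus strand: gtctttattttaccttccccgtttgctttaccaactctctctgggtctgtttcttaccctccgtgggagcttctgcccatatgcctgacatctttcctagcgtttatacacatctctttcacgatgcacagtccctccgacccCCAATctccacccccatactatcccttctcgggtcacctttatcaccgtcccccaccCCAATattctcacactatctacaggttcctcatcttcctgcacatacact
The motifs searched on both strands, chosen after the sequences were seen, were ATAAA and TTTAAA, which resemble a TATA box, from 60 to 5 bases before the start, and GGGCGG (a GC box) and CCAAT over all 250 bases. At the start shown, which of its 4 starts has the most matches, Igf2 had all but TTTAAA, whereas 2 of its other starts had 0 matches and the third had GGGCGG alone. The ATAAA of Igf2 lay at 12 to 8 bases before that start. Igfbp5 had TTTAAA at 49 to 44 bases before the start, and Igfbp6 had CCAAT at 107 to 103 and at 50 to 46 bases. Of 32851 promoters of the same length, 11.2% held ATAAA and 2.64% TTTAAA in that window (13.3% either), 32.7% held GGGCGG and 33.8% held CCAAT. Matches to GGGCGG and CCAAT are therefore common, and TTTAAA, the match of Igfbp5, is rarer. GC content was 66.0% for Igf2, 58.8% for Igfbp5 and 49.6% for Igfbp6. All 10 genes matched a RefSeq promoter.

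Each gene had its own distribution over cell classes. In ganglia, fibroblast-like cells held 98.4% and 89.2% of the Igf2 UMIs, 98% and 94% of the Igfbp6 UMIs, 90.3% and 75.8% of the Igfbp5 UMIs and 87.4% and 70.2% of the Igf1 UMIs of the 1NMPP1 and vehicle libraries, although they were 5.53% and 3.98% of the cells. Endothelial-like cells held 72.1% and 66.8% of Igfbp7, satellite glia-like cells 50.4% and 59.2% of Igfbp4 and 48.5% and 63.2% of Igfbp3, and sensory neuron-like cells 88.6% and 90.0% of Igfbp2. In growth plate, neutrophil-like cells held 77.2% and 72.6% of Igf1r, granulocyte progenitor-like cells 57.2% and 52.6% of Igfbp4, and Igfbp7 was shared by chondrocyte-like cells (53.8% and 29.0%) with the few fibroblast-like cells (30.4% and 52.1%). Such shares depend on which cells were captured.

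**Figure D1:**
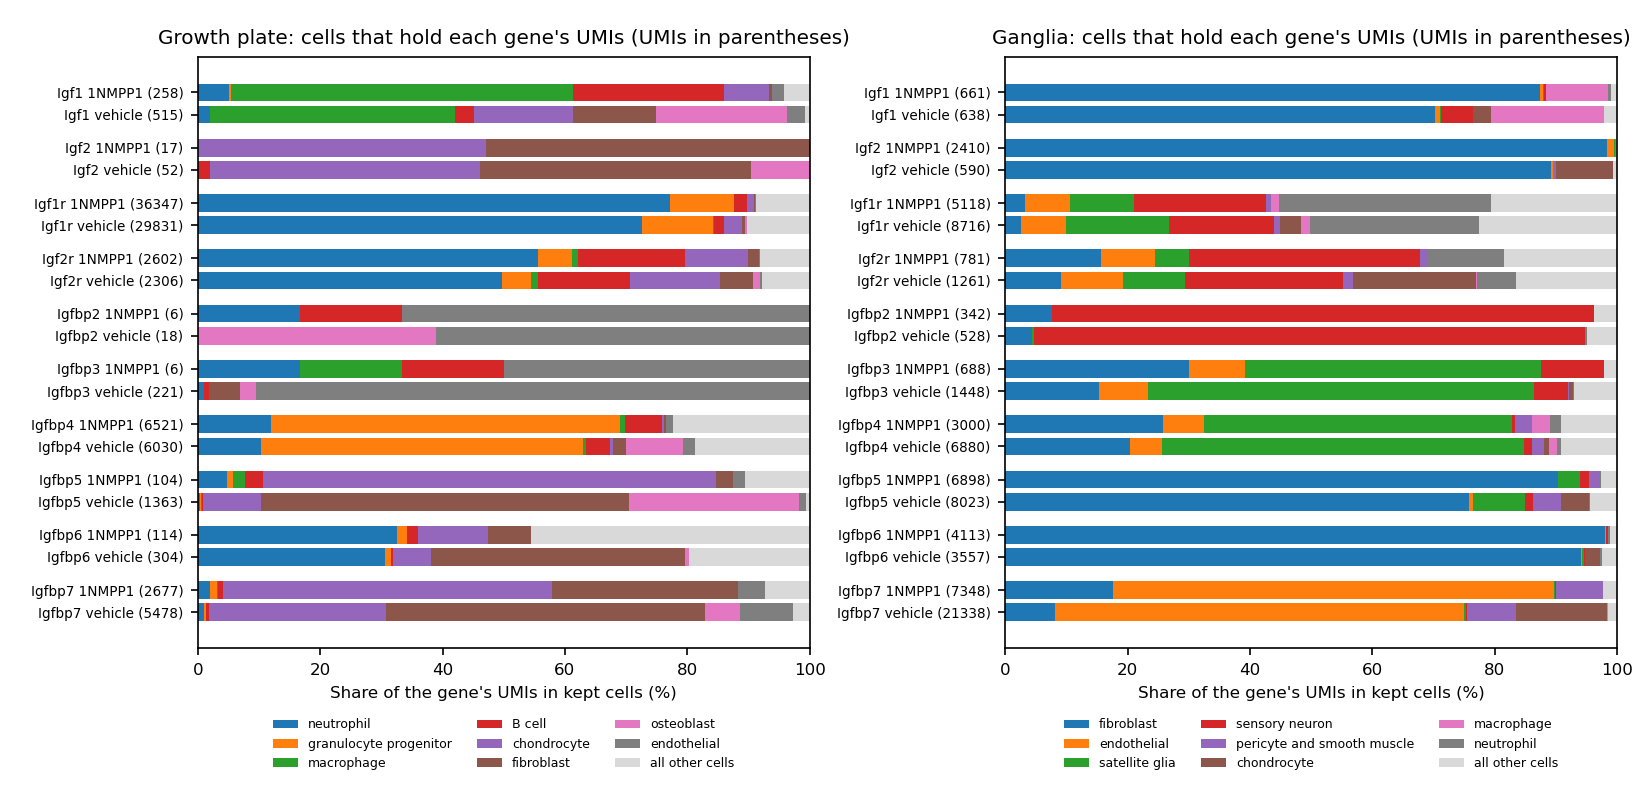
Share of each gene's UMIs that lay in the named cell classes, growth plate left and ganglia right; each gene has its 1NMPP1 bar above its vehicle bar, with the gene's UMIs in kept cells in parentheses. Fibroblast-like cells hold nearly the whole bar of Igf2 and Igfbp6 in ganglia, while Igf1r is spread over many classes there.

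**Figure D2:**
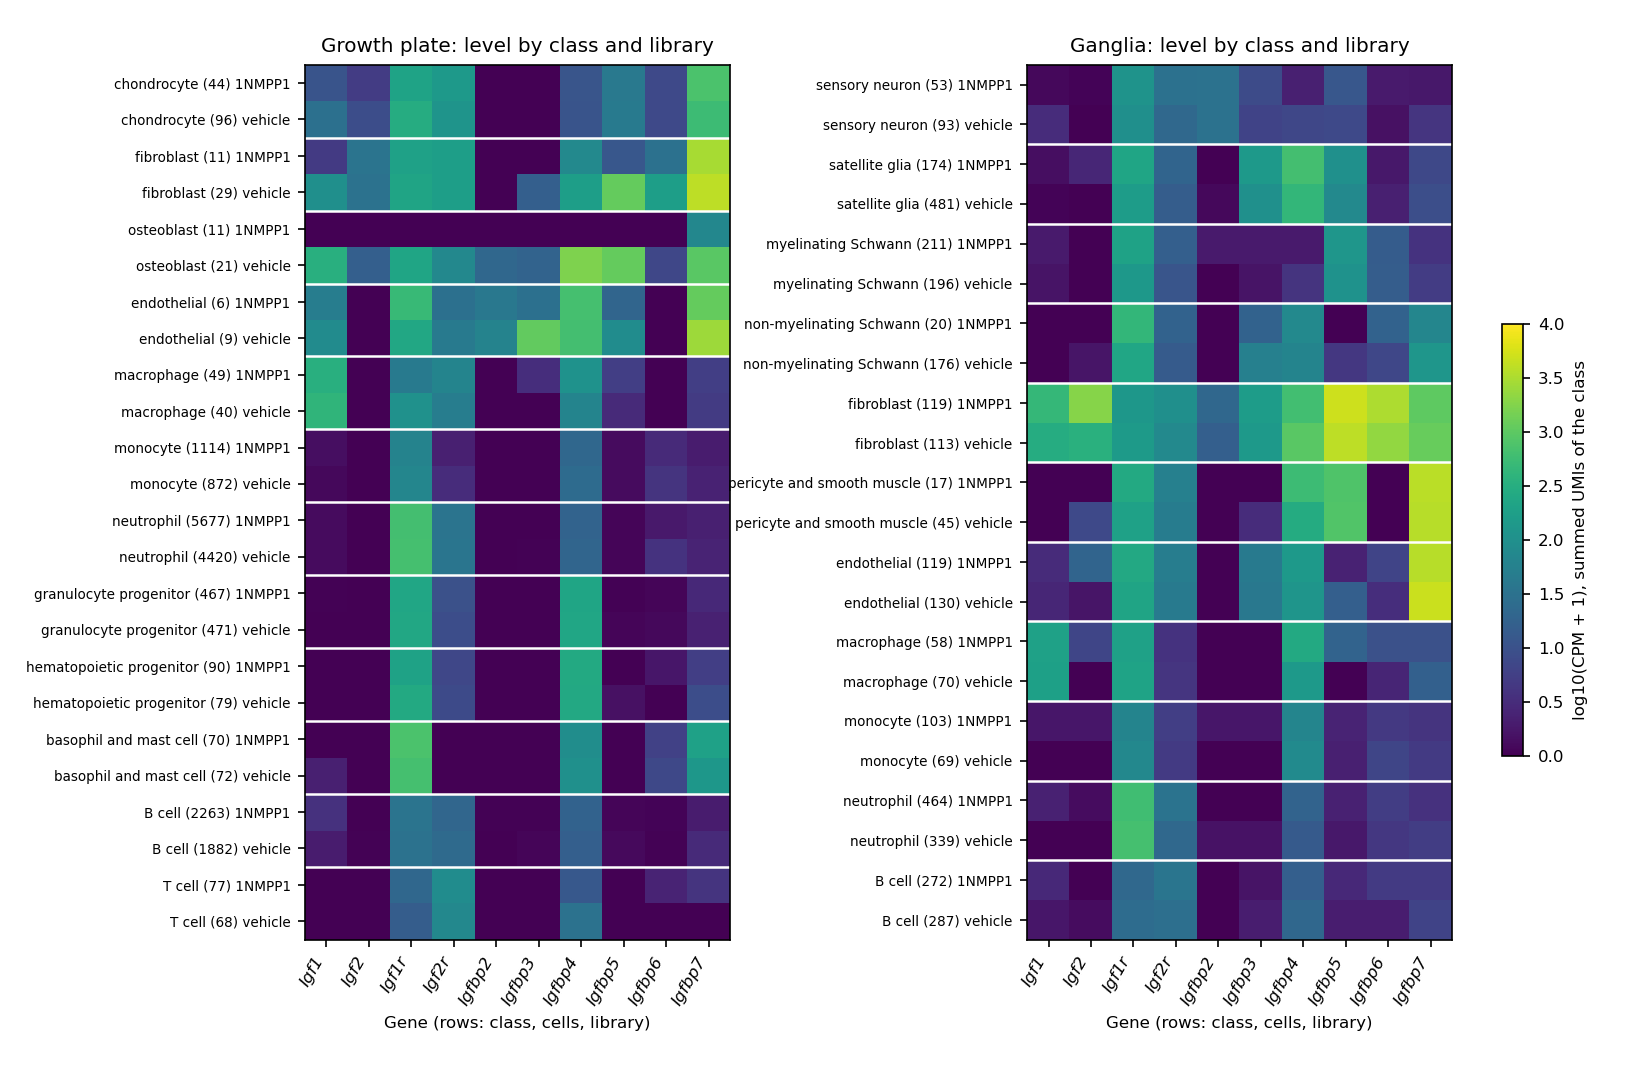
Level of the 10 genes, as log10(CPM + 1) of the summed UMIs, in selected classes of each tissue, with the number of cells in parentheses and 1NMPP1 above vehicle. Igf1r is detected in nearly every class, whereas Igf2, Igfbp5 and Igfbp6 stand out in ganglion fibroblast-like cells; classes with few cells, such as the 6 and 9 endothelial-like cells of growth plate, are imprecise.

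To compare the arms, UMIs were summed per class and library, and a gene counted as measured in a class with at least 20 UMIs over both libraries. In growth plate, 50 gene and class pairs were measured in 13 classes of at least 30 cells per library, of which 1 was at least 2-fold higher and 4 at least 2-fold lower in 1NMPP1 (10.0%). Over all genes of these classes, the share past 2-fold in either direction was 21.2% in erythroid-like, 12.0% in macrophage-like, 6.67% in chondrocyte-like, 6.6% in basophil and mast cell-like, 5.77% in dendritic-like, 5.36% in T cell-like and 5.3% in NK cell-like cells. It was 3.92% in hematopoietic progenitor-like, 3.46% in plasmacytoid dendritic-like, 3.19% in B cell-like and in monocyte-like, 3.14% in neutrophil-like and 2.88% in granulocyte progenitor-like cells. In shallow barcodes named granulocyte progenitor-like, an uncertain name, it was 13.3%, with 0 members measured.

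In ganglia, 61 pairs were measured in 13 classes, with 4 at least 2-fold higher and 6 at least 2-fold lower (16.4%). The share of all genes was 23.7% in erythroid-like, 14.5% in shallow myelinating Schwann-like, 14.1% in endothelial-like, 13.9% in dendritic-like, 13.3% in shallow neuron-like, 12.7% in satellite glia-like and 12.4% in macrophage-like cells. It was 9.65% in fibroblast-like, 8.91% in B cell-like, 8.34% in sensory neuron-like, 7.84% in myelinating Schwann-like, 6.37% in neutrophil-like and 6.09% in monocyte-like cells. Most pairs of both tissues therefore lay within 2-fold. Of the 15 that did not, Igf2 in ganglion fibroblast-like cells had 526 UMIs in its lower library, and the other 14 had between 2 and 37.

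**Figure D3:**
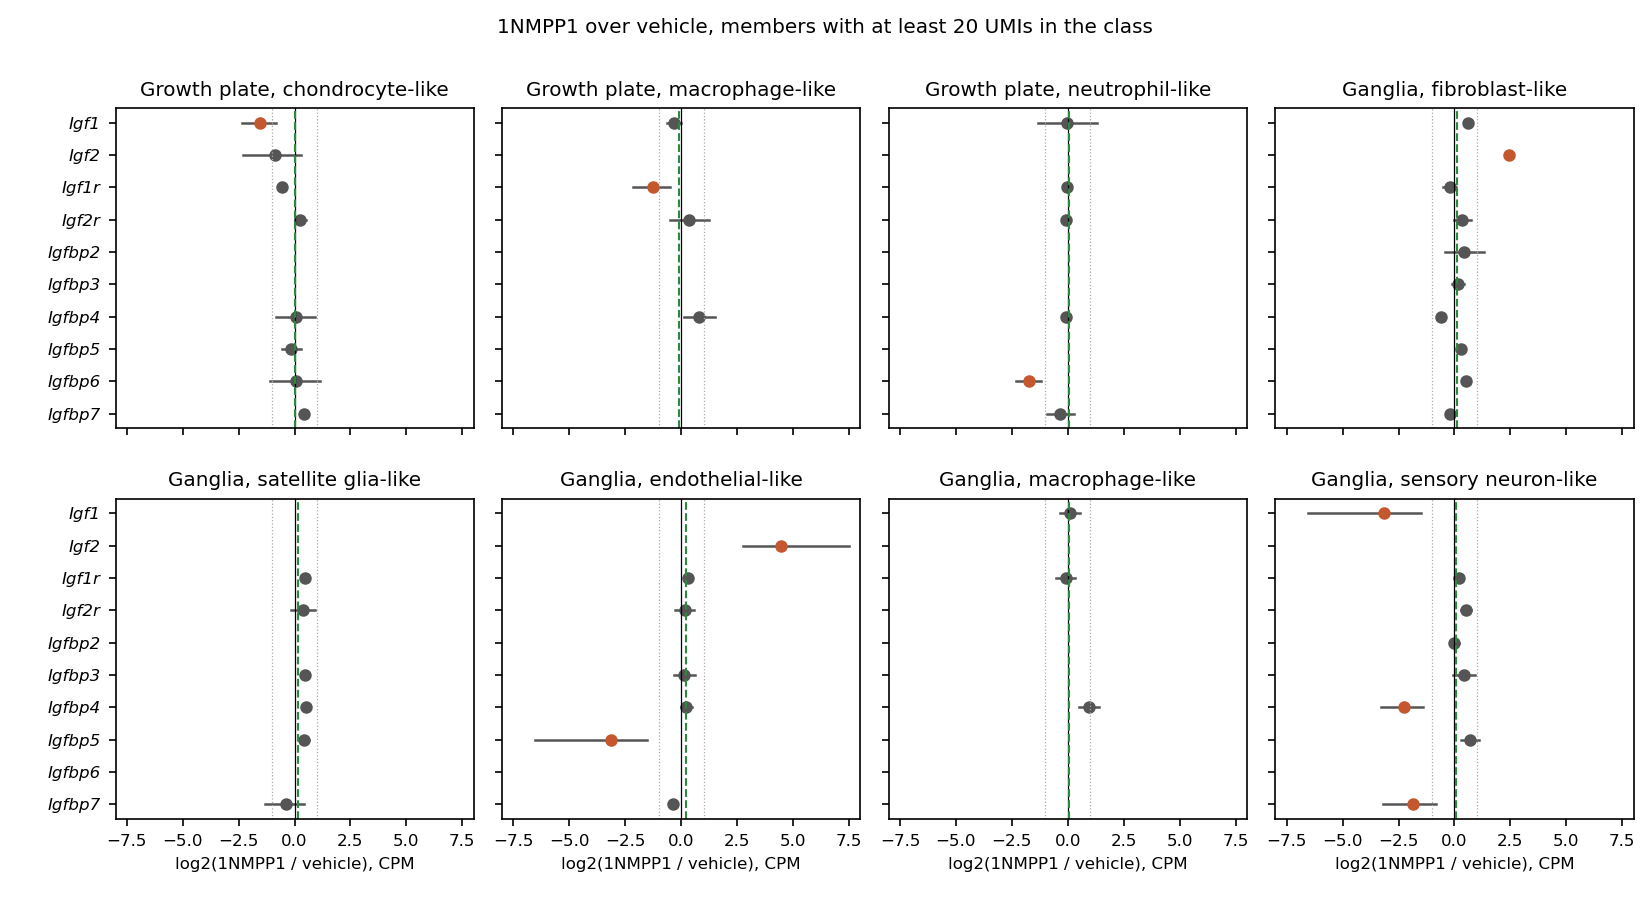
The log2 ratio of 1NMPP1 over vehicle for the members measured in 8 classes, with exact 95% intervals for counting error; coloured points are at least 2-fold apart, the dotted lines mark 2-fold and the dashed green line is the median of all genes measured in the class. Igf2 in ganglion fibroblast-like cells lies at 2.42 with a narrow interval, while the wide intervals of Igf1, Igfbp4 and Igfbp7 in sensory neuron-like cells come from few UMIs.

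Igf2, a growth factor made mainly before birth in most tissues and expressed from the paternal allele, had the greatest well-counted difference of the set. In ganglion fibroblast-like cells (119 and 113 cells) it had 2371 UMIs or 1872 CPM in the 1NMPP1 library, against 526 UMIs or 349 CPM in the vehicle library, a log2 ratio of 2.42 (2.29 to 2.56). In that class 1 of the 10 members was at least 2-fold higher and none at least 2-fold lower, where 9.65% of all genes passed 2-fold. A UMI of Igf2 was seen in 38.7% and 32.7% of these cells (22.6% and 14.3% with each cell thinned to 1000 UMIs), against 0% and 0.348% of B cell-like cells of the same libraries, whose median depth was 4346 and 6354 UMIs against 10440 and 14089 in fibroblast-like cells. The ratio of levels was thus greater than the ratio of the shares of cells.

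The fibroblast-like class had 2 parts. A cluster led by Dcn, Apod and Lum (55 and 62 cells) had 4 and 8 UMIs of Igf2, 7.62 and 10.4 CPM, in 1NMPP1 and vehicle. The clusters with Sfrp4 or Mgp among their leading genes (64 and 51 cells) had 2367 and 518 UMIs, 3192 and 699 CPM, with a log2 ratio of 2.19 (2.05 to 2.33). There, 68.8% of cells in 1NMPP1 and 68.6% in vehicle had a UMI, with a median of 3.5 and 2 UMIs and a highest cell of 344 and 86 UMIs. At 5000 CPM or more, a level picked after the cells were seen, stood 15 of 64 cells in 1NMPP1 and 1 of 51 in vehicle. In each library 10 cells held most of the UMIs of the class, 74.5% and 76.2%. Within the Sfrp4 and Mgp group the clusters were unevenly filled: the largest had 37 and 16 cells with 3887 and 839 CPM of Igf2, a cluster led by Igf2, Mgp and Eln had 7 and 1 cells with 7801 and 3446 CPM, and a cluster of 2 and 18 cells had 851 and 723 CPM. A cluster with Clec3b and Pi16 (6 and 4 cells) had 74.9 and 14.5 CPM. The other 2 of the 6 clusters were lower in 1NMPP1, with 347 and 448 CPM in 5 and 7 cells and 155 and 403 CPM in 7 and 5 cells.

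**Figure D4:**
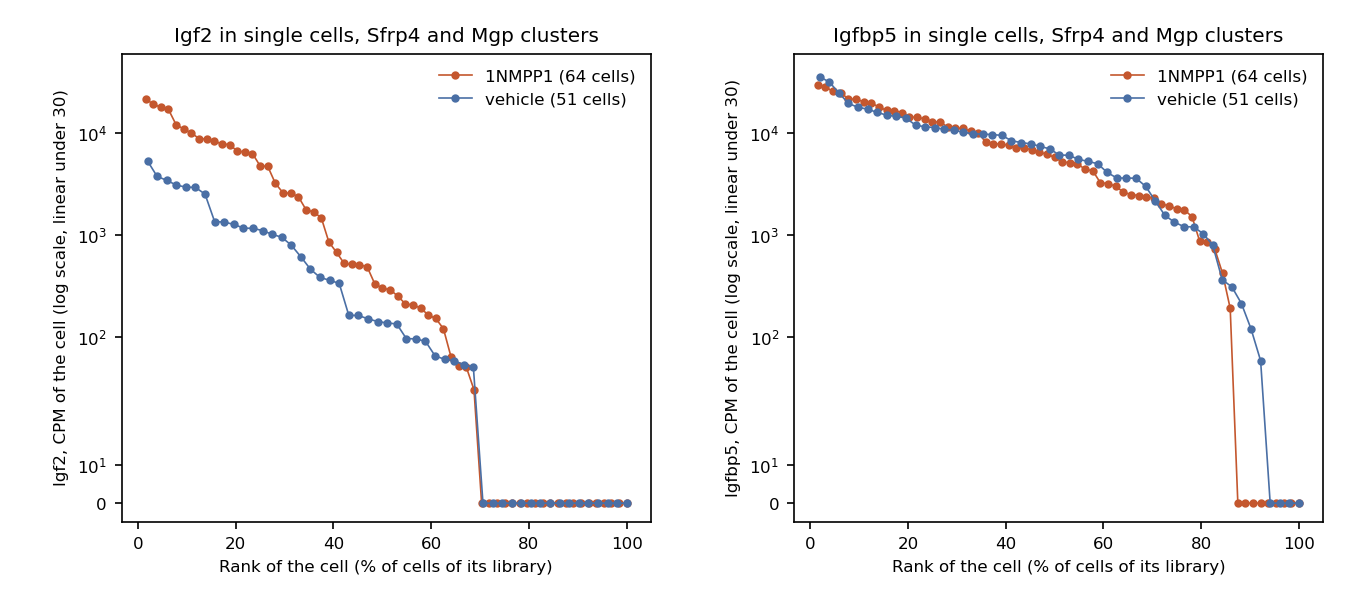
Igf2 (left) and Igfbp5 (right) in single fibroblast-like cells of the Sfrp4 and Mgp clusters, as CPM of the cell on a log scale that is linear under 30, against the rank of the cell in its library; 64 cells in 1NMPP1 and 51 in vehicle. The Igf2 curve of 1NMPP1 has the higher median (295 against 137 CPM) and highest cell (21695 against 5340 CPM), and both curves leave 0 at a like rank, whereas the Igfbp5 curves lie close together.

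Sex of the cells differed along with Igf2: 30.3% of the fibroblast-like cells in 1NMPP1 and 50.4% in vehicle were called male, and 61.3% and 31.0% female. Within male-called cells (36 and 57) Igf2 was at 3035 and 275 CPM, log2 ratio 3.46, and within female-called cells (73 and 35) at 1273 and 360 CPM, log2 ratio 1.82. Within the Sfrp4 and Mgp clusters alone it was 2.84 in male-called cells (27 and 24) and 1.615 in female-called cells (32 and 14). The direction was the same in each sex. The part of sex in the difference was not otherwise tested.

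H19, the non-coding RNA from the maternal allele of the same domain, was counted beside Igf2. In the Sfrp4 and Mgp clusters it had 2011 and 746 CPM in 1NMPP1 and vehicle, a log2 ratio of 1.43 (1.29 to 1.57), and in the Apod and Lum cluster 32.4 and 33.9 CPM. In single cells of the Sfrp4 and Mgp clusters, H19 was found in 30 of 44 cells with Igf2 (68.2%) and 7 of 20 cells without (35.0%) in 1NMPP1, and in 25 of 35 cells with Igf2 (71.4%) and 4 of 16 cells without (25.0%) in vehicle.

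Outside fibroblast-like cells Igf2 was sparse. Ganglion endothelial-like cells had 26 UMIs in 14 of 119 cells in 1NMPP1 and 2 UMIs in 2 of 130 cells in vehicle (log2 ratio 4.45, 2.75 to 7.87), with 14.1% of all genes past 2-fold there. Of these, 25 and 2 UMIs were in a cluster led by Cldn5, Flt1 and Cxcl12 that had 34 cells in 1NMPP1 and 5 in vehicle, with 51.4 and 17.3 CPM. The class therefore holds different clusters in the 2 libraries. Chondrocyte-like cells had 4.15 and 7.95 CPM (8 and 23 UMIs) in 1NMPP1 and vehicle growth plate. The few fibroblast-like cells of growth plate (11 and 29) had 33.3 and 31.7 CPM. Neutrophil-like cells of growth plate had 0 UMIs in 5677 and 4420 cells, which allows a level of up to 0.0687 and 0.0915 CPM.

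Igf1, the growth hormone-dependent ligand, was highest, among classes of at least 30 cells per library, in macrophage-like cells of growth plate and in fibroblast-like cells of ganglia. The macrophage-like cells of growth plate (49 and 40) had 333 and 415 CPM in 1NMPP1 and vehicle, from 144 and 206 UMIs, and those of ganglia (58 and 70) had 195 and 184 CPM, from 67 and 117 UMIs. The log2 ratios over all such cells were -0.32 (-0.64 to -0.00) and 0.09 (-0.37 to 0.53). In ganglia the 2 macrophage-like clusters went opposite ways, with 251 and 144 CPM (35 and 34 cells; log2 ratio 0.79, 0.18 to 1.41) and 122 and 221 CPM (23 and 36 cells; -0.83, -1.69 to -0.10). In growth plate the next such class, chondrocyte-like cells, lay far lower, with intervals that did not overlap. A UMI was seen in 61.2% and 80.0% of growth plate macrophage-like cells, against 0.211% and 0.204% of neutrophil-like cells, at median depths of 4449 and 9516 UMIs against 5716 and 5480. Median depth of the macrophage-like cells was the lower in 1NMPP1, so the shares are not comparable between arms.

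In ganglion fibroblast-like cells Igf1 had 456 and 297 CPM in 1NMPP1 and vehicle, a log2 ratio of 0.62 (0.44 to 0.80). The Apod and Lum cluster had 322 and 305 CPM (log2 ratio 0.08, -0.22 to 0.37), and the Sfrp4 and Mgp clusters 552 and 289 CPM (0.93, 0.69 to 1.18). Unlike Igf2, Igf1 was thus present in both parts of the class. In the Sfrp4 and Mgp clusters a UMI was seen in 30 of 64 cells in 1NMPP1 and 35 of 51 in vehicle. The median there was 0 and 2 UMIs, and the highest cell had 70 and 26 UMIs. Over all fibroblast-like cells the log2 ratio was 1.20 (0.97 to 1.44) in male-called and 0.26 (-0.06 to 0.59) in female-called cells. Within the Sfrp4 and Mgp clusters alone it was 1.28 and 1.00. Macrophage-like cells came second in ganglia, with intervals apart from those of fibroblast-like cells in each library.

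In chondrocyte-like cells of growth plate, the cells on which IGF1 acts to lengthen bone, Igf1 itself was rare: 19 UMIs in 2 of 44 cells in 1NMPP1 and 84 UMIs in 10 of 96 cells in vehicle, 9.86 and 29.0 CPM, log2 ratio -1.53 (-2.36 to -0.83). It was the only one of 8 measured members past 2-fold there, beside 6.67% of all genes. A single cell held 94.7% and 63.1% of the UMIs, and the direction was opposite in male-called cells (18 and 22 UMIs in 11 and 65 cells, log2 ratio 2.07) and in female-called cells (1 and 61 UMIs in 22 and 13 cells, log2 ratio -6.74). The value therefore describes a few cells.

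B cell-like cells of growth plate had 64 and 16 UMIs of Igf1 in 28 and 10 of 2263 and 1882 cells, 2.78 and 1.04 CPM, log2 ratio 1.38 (0.61 to 2.31), where 3.19% of all genes passed 2-fold. Sensory neuron-like cells had 2 and 34 UMIs, and 32 of the 34 in vehicle lay in a cluster of 9 cells led by Pcp4, Nefl and Fxyd7, to which the 1NMPP1 library gave 7 cells with 0 UMIs. Vehicle osteoblast-like cells of growth plate (21 cells) had 330 CPM of Igf1, and the 11 such cells of the 1NMPP1 library, with a median of 1406 UMIs per cell, had 0 UMIs of 14173, which does not limit the level below 212 CPM.

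Igf1r, the receptor kinase of both ligands, was measured in 13 of 14 classes in growth plate, all but the shallow granulocyte progenitor-like barcodes, and in 13 of 13 in ganglia. Among such classes in growth plate, neutrophil-like cells had 643 and 660 CPM and basophil and mast cell-like cells 726 and 655 CPM in 1NMPP1 and vehicle. The intervals of these 2 classes overlapped in vehicle but not in 1NMPP1. Granulocyte progenitor-like cells (229 and 252 CPM), chondrocyte-like cells (204 and 298 CPM) and hematopoietic progenitor-like cells (198 and 267 CPM) followed as neighbours with overlapping intervals in 1NMPP1. As a share of all UMIs, Igf1r in neutrophil-like cells was thus well above that of their progenitors in both arms. Granulocyte progenitor-like cells were far deeper, with medians of 33775 and 27685 UMIs against 5716 and 5480. The number of Igf1r UMIs per cell was not compared. B cell-like cells were lower, at 34.0 and 31.1 CPM. A UMI was found in 87.5% and 86.6% of neutrophil-like cells, against 14.7% and 11.3% of B cell-like cells, at median depths of 5716 and 5480 against 6750 and 5535 UMIs.

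Neutrophil-like cells of ganglia had 594 and 650 CPM of Igf1r in 1NMPP1 and vehicle, close to those of growth plate, with a UMI in 86.6% and 87.9% of cells. Endothelial-like cells (263 and 214 CPM), satellite glia-like cells (224 and 163 CPM), macrophage-like cells (195 and 209 CPM) and myelinating Schwann-like cells (201 and 136 CPM) formed a middle group. Sensory neuron-like cells had 114 and 98.4 CPM, seen in 98.1% and 78.5% of cells at median depths of 190074 and 166891 UMIs. Of the 26 measured classes of both tissues 1 passed 2-fold: growth plate macrophage-like cells had 18 and 51 UMIs, 41.6 and 103 CPM, log2 ratio -1.28 (-2.17 to -0.50), where 12% of all genes passed. Chondrocyte-like cells had a log2 ratio of -0.54 (-0.72 to -0.37), satellite glia-like cells 0.46 (0.31 to 0.60) and myelinating Schwann-like cells 0.56 (0.28 to 0.83), against medians of all genes of 0.01, 0.15 and 0.08. These counting intervals leave out 0, but variation between animals is not in them. In chondrocyte-like cells the ratio was -0.95 (-1.33 to -0.61) in male-called and -0.18 (-0.51 to 0.17) in female-called cells. By cluster it was -0.21 (-0.45 to 0.02) in the largest, -0.71 (-1.16 to -0.29) in the next and -1.15 (-1.50 to -0.82) in the smallest.

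Igf2r, the receptor that clears IGF2, had 174 CPM in both libraries in the few fibroblast-like cells of growth plate (11 and 29), and 140 and 117 CPM in chondrocyte-like cells in 1NMPP1 and vehicle (log2 ratio 0.26, 0.02 to 0.49). T cell-like cells followed at 87.8 and 73.3 CPM, then NK cell-like cells at 65.0 and 61.4 CPM, with the intervals of these 2 overlapping. In ganglia, fibroblast-like cells had 96.4 and 76.3 CPM, endothelial-like cells 48.4 and 43.5 CPM and sensory neuron-like cells 30.3 and 21.4 CPM. The 57 chondrocyte-like cells of the vehicle ganglion library had 143 CPM, near the level of those in growth plate. None of 10 measured growth plate classes passed 2-fold. In ganglia, 2 of 9 passed, both on few UMIs: erythroid-like cells with 4 and 21 UMIs (log2 ratio -2.12, beside 23.7% of all genes and a median of -0.42), and shallow neuron-like barcodes with 33 and 4 UMIs, of which 1 cell held 84.8%. Airn, the RNA read from the opposite strand of Igf2r, was the gene whose level over classes was most like that of Igf2r (r = 0.88), and shared reads were not tested.

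Igfbp2, which binds IGF2 with preference, had most of its ganglion UMIs in sensory neuron-like cells. These were also the deepest cells, with medians of 190074 and 166891 UMIs in 1NMPP1 and vehicle, against 10440 and 14089 in fibroblast-like cells. Sensory neuron-like cells had 31.2 CPM in both libraries, from 303 UMIs in 33 of 53 cells in 1NMPP1 and 475 UMIs in 34 of 93 cells in vehicle, with a log2 ratio of 0.00 (-0.22 to 0.21). Within them a cluster with Fxyd2, Trnp1 and Th among its leading genes (17 and 14 cells) had 57.1 and 79.0 CPM, and a cluster led by Fxyd7, Gap43 and Calca (8 and 12 cells) 7.33 and 55.6 CPM. Other clusters went the other way: that led by Calca, Tac1 and Adcyap1 (12 and 13 cells) had 27.8 and 4.97 CPM, and that led by Pcp4 (7 and 9 cells) 23.2 and 1.03 CPM. So the level was alike in the class as a whole and uneven among its clusters. Fibroblast-like cells had 20.5 and 15.3 CPM, with an interval that overlapped that of sensory neuron-like cells in 1NMPP1 but not in vehicle. A small cluster of them (5 and 7 cells) had 108 and 206 CPM, from 5 and 17 UMIs. B cell-like cells had 0 UMIs in 272 and 287 cells. In growth plate the gene had 6 and 18 UMIs in all, of which the 6 and 9 endothelial-like cells held 4 and 11, at 38.9 and 60.6 CPM.

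Igfbp3, the main carrier of IGF in blood, was a transcript of fibroblast-like and satellite glia-like cells in ganglia. Fibroblast-like cells had 163 and 147 CPM in 1NMPP1 and vehicle, all but 1 UMI of them in the Sfrp4 and Mgp clusters (207 and 220 UMIs there, 0 and 1 in the Apod and Lum cluster). Satellite glia-like cells had 140 and 101 CPM, log2 ratio 0.47 (0.28 to 0.65). The larger of their clusters (98 and 232 cells) had 175 and 123 CPM, and the other (66 and 233 cells) 44.7 and 66.5 CPM, so the ratio was above 0 in the first and below 0 in the second. A further small cluster (10 and 16 cells) had 17 and 1 UMIs. Endothelial-like cells had 43.5 and 39.4 CPM. Vehicle non-myelinating Schwann-like cells (176 cells) had 53.6 CPM, but 78 of them are in a cluster that scored higher for satellite glia markers, so that name is uncertain for this value. In growth plate 196 of the 221 UMIs of the vehicle library came from 1 endothelial-like cell, against 6 UMIs in the whole 1NMPP1 library.

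Igfbp4, a binding protein that the protease PAPP-A cleaves to free IGF, was the most widely spread of the binding proteins. In growth plate it was highest, among classes of at least 30 cells, in hematopoietic progenitor-like cells (271 and 262 CPM in 1NMPP1 and vehicle). Granulocyte progenitor-like cells had 226 and 230 CPM (a UMI in 94.6% and 93% of cells), and neutrophil-like cells 17.8 and 19.1 CPM. Shallow barcodes named granulocyte progenitor-like (31 and 38) had 261 and 133 CPM from 8 and 5 UMIs. Their name is uncertain, as the cluster scored higher for megakaryocyte markers (4.84 against 4.75). Its leading genes were Acp5, Pf4 and Ctsk, with Mpo, Ctsg and Elane further down. The 6 and 9 endothelial-like cells had 662 and 639 CPM, and the 21 osteoblast-like cells of vehicle 1699 CPM. In the 11 measured growth plate classes 1 passed 2-fold, T cell-like cells with 8 and 18 UMIs (log2 ratio -1.38), of which 13 of the 18 in vehicle were in 1 cell; 5.36% of all genes passed there.

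In ganglia Igfbp4 had 633 and 450 CPM in satellite glia-like cells (1513 and 4071 UMIs; log2 ratio 0.49, 0.41 to 0.58) and 610 and 933 CPM in fibroblast-like cells (772 and 1407 UMIs; log2 ratio -0.61, -0.74 to -0.49). Neither passed 2-fold. Satellite glia are the cells that wrap neuronal cell bodies, and 0 of their 6 measured members passed, where 12.7% of all genes did. Both of their larger clusters had a ratio above 0, with 774 and 585 CPM in the first and 375 and 231 CPM in the second. Macrophage-like cells had 268 and 140 CPM in ganglia (log2 ratio 0.94, 0.50 to 1.38) and 109 and 62.4 CPM in growth plate (0.79, 0.11 to 1.50), so the 1NMPP1 library was the higher in both tissues. In sensory neuron-like cells the gene had 12 and 92 UMIs, 1.23 and 6.05 CPM, log2 ratio -2.24 (-3.30 to -1.42).

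The fibroblast-like cells split for Igfbp4. In the Apod and Lum cluster it had 780 and 492 CPM in 1NMPP1 and vehicle, log2 ratio 0.66 (0.46 to 0.87), and in the Sfrp4 and Mgp clusters 490 and 1390 CPM, log2 ratio -1.50 (-1.68 to -1.33). Of the 1030 vehicle UMIs of the second part, 463 were in a cluster of 7 cells at 5600 CPM, to which the 1NMPP1 library gave 5 cells at 1083 CPM. The largest cluster of the Sfrp4 and Mgp group had 334 and 657 CPM. With male-called and female-called cells taken apart, the Sfrp4 and Mgp clusters had log2 ratios of -1.91 and -1.34.

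**Figure D5:**
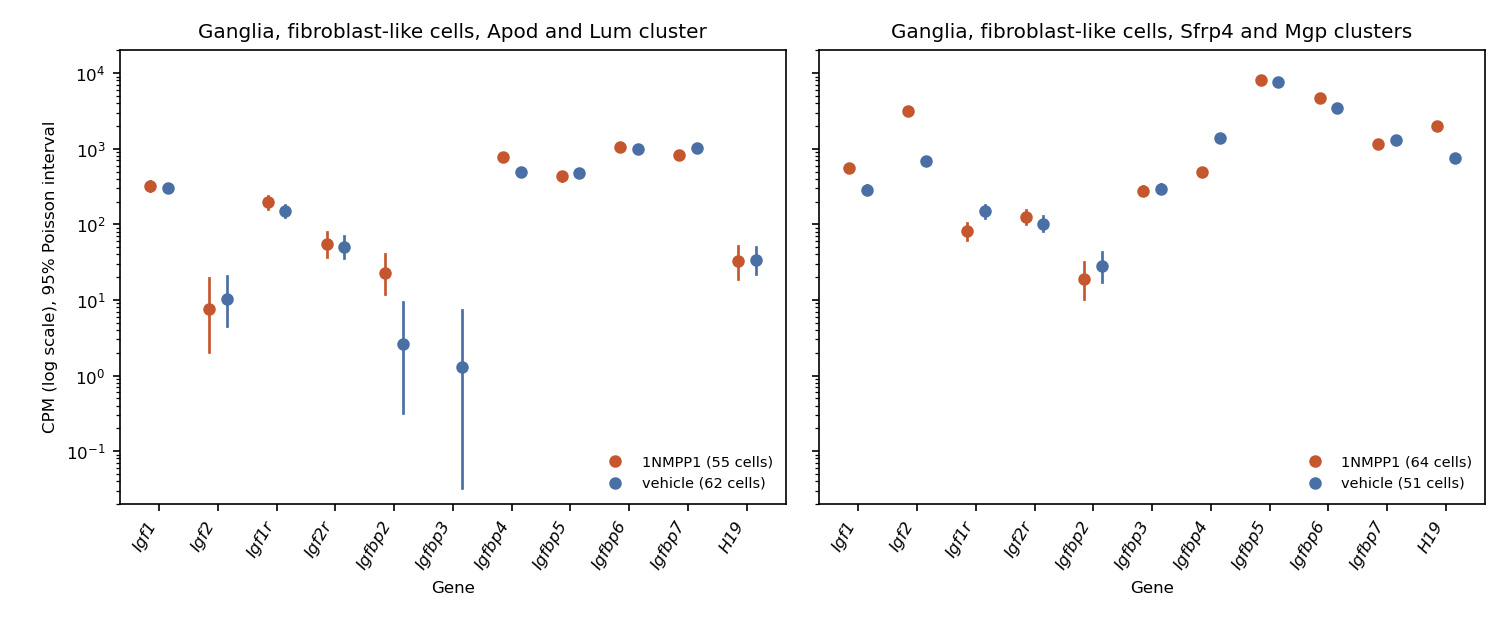
Level of the 10 genes and H19 in the 2 parts of the ganglion fibroblast-like cells, as CPM on a log scale with exact 95% Poisson intervals (points with no bar have intervals narrower than the point; genes with 0 UMIs have no point); 1NMPP1 is left of vehicle. Igf2, H19 and Igfbp3 are far higher in the Sfrp4 and Mgp clusters, and Igfbp4 is higher in 1NMPP1 in the first panel and lower in the second.

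Igfbp5, a binding protein that attaches to the matrix around cells, was at 4921 and 4035 CPM in ganglion fibroblast-like cells in 1NMPP1 and vehicle (6231 and 6085 UMIs; log2 ratio 0.29, 0.24 to 0.34). As with Igf2 it was mostly in the Sfrp4 and Mgp clusters, with 8095 and 7709 CPM against 435 and 484 CPM in the Apod and Lum cluster. In the Apod and Lum cluster 8 of 55 and 13 of 62 cells had a UMI, and 1 cell held 193 of 228 UMIs in 1NMPP1 and 218 of 371 in vehicle. In the Sfrp4 and Mgp clusters the log2 ratio was 0.07 (0.02 to 0.12) over all cells, with opposite directions by sex: 0.46 (0.39 to 0.53) in male-called cells and -0.32 (-0.41 to -0.23) in female-called cells. The 17 and 45 pericyte and smooth muscle-like cells had 784 and 826 CPM, myelinating Schwann-like cells 126 and 110 CPM and satellite glia-like cells 102 and 75.6 CPM. Endothelial-like cells had 2 and 45 UMIs (log2 ratio -3.14, -6.54 to -1.51); 29 of the 45 were in a cluster with 1 cell in 1NMPP1 and 40 in vehicle. With Igf2 this made 2 of 7 members past 2-fold in endothelial-like cells. In growth plate chondrocyte-like cells had 39.9 and 44.2 CPM, with 71 of the 77 UMIs of 1NMPP1 in 1 cell, and the 29 fibroblast-like cells of vehicle had 1131 CPM, with 454 of 820 UMIs in 1 cell.

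Igfbp6, which prefers IGF2 over IGF1, had 3183 and 2218 CPM in ganglion fibroblast-like cells in 1NMPP1 and vehicle (log2 ratio 0.52, 0.45 to 0.59). A UMI was present in 91.6% and 90.3% of them, against 1.84% and 1.05% of B cell-like cells. Both parts of the class had the gene, with 4699 and 3497 CPM in the Sfrp4 and Mgp clusters and 1041 and 982 CPM in the Apod and Lum cluster. Its highest cluster (7 and 5 cells, led by Igfbp6, Dcn and Islr) had 8601 and 6128 CPM while Igfbp5 was at 48.5 and 57.6 CPM there. Neutrophil-like cells of growth plate had 37 UMIs in 30 cells and 93 UMIs in 65 cells, 0.848 and 2.83 CPM, log2 ratio -1.73 (-2.33 to -1.18), the only one of their 6 measured members past 2-fold, beside 3.14% of all genes. At 0.528% and 1.47% of cells, it was a rare transcript there. In male-called cells alone the direction turned, with 18 and 9 UMIs and a log2 ratio of 1.68.

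Igfbp7, a secreted protein of vessel walls, was high in endothelial-like cells of ganglia, with 3712 and 4841 CPM in 1NMPP1 and vehicle (5296 and 14252 UMIs). A UMI was seen in 97.5% and 100% of these cells. Its log2 ratio was -0.38 (-0.43 to -0.34), where the median of all genes was 0.23. In 5 of 5 endothelial-like clusters the ratio was below 0, between -1.89 and -0.07. Pericyte and smooth muscle-like cells had 3800 and 3723 CPM, so the gene was not particular to endothelial-like cells, and fibroblast-like cells had 1021 and 1158 CPM. The 57 chondrocyte-like cells of the vehicle ganglion library had 1797 CPM. In growth plate, chondrocyte-like cells had 746 and 548 CPM (log2 ratio 0.45, 0.34 to 0.55), and basophil and mast cell-like cells 191 and 129 CPM. The ratio in chondrocyte-like cells was 1.52 (1.37 to 1.66) in male-called cells (11 and 65) and 0.26 (0.02 to 0.51) in female-called cells (22 and 13). A chondrocyte-like cluster with Ibsp, Sparc and Col2a1 as leading genes (13 and 28 cells) had 2102 and 1569 CPM, above the 359 and 349 CPM of the largest chondrocyte-like cluster (20 and 46 cells). The smallest such cluster (11 and 22 cells) had 583 and 298 CPM. In sensory neuron-like cells the gene had 8 and 47 UMIs (log2 ratio -1.84, -3.20 to -0.81), so that with Igf1 and Igfbp4 3 of 8 members were past 2-fold there, beside 8.34% of all genes. All 3 had at most 6.05 CPM in either library, and Igfbp4 and Igfbp7 are high in satellite glia-like and endothelial-like cells. The part of free RNA in these counts was not tested. With each library clustered on its own, Igfbp7 reversed in sensory neuron-like cells, with 111 and 47 UMIs and a log2 ratio of 1.53.

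The shallow neuron-like barcodes (47 and 225 in 1NMPP1 and vehicle) had medians of 765 and 982 UMIs. In 1NMPP1, a cluster of 23 of them held 2640934 of the 2668069 UMIs of the class. In vehicle, the same cluster had 181 barcodes and 3204896 of 3260784 UMIs. The sums therefore come mostly from this cluster, and in 1NMPP1 from deep barcodes. In the class 3 of 6 measured members were past 2-fold, where 13.3% of all genes were: Igf2r, Igfbp7 (103 and 14 UMIs, log2 ratio 3.12) and Igfbp5 (2 and 32 UMIs, log2 ratio -3.41). Single cells held 84.8%, 97.1% and 87.5% of the UMIs of the higher library in that order. These ratios therefore describe 1 cell each.

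A further 41 genes of the pathway, in 6 lists, were counted the same way, and those at least 2-fold apart on 50 or more UMIs are named, at most 4 per class. In ganglion fibroblast-like cells, genes of the growth hormone axis were higher in 2 of 6 and lower in 4 of 6. Adaptors and insulin receptor genes were higher in 6 of 7 (median log2 ratio 0.32) and PI3K and AKT genes in 7 of 9 (0.35). The median of all genes was 0.10, so most genes of the class were higher, and their share was not counted. Proteases of the binding proteins and their inhibitors were higher in 1 of 3. Genes of Igf2 RNA were higher in 1 of 2 and related binding proteins in 3 of 5.

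The named genes of these cells were H19, already described, Ghr, Stat5b and Esm1. Ghr, the growth hormone receptor, had 549 and 249 CPM in 1NMPP1 and vehicle (log2 ratio 1.14, 0.96 to 1.33). Stat5b, a transcription factor that this receptor activates, had 74.2 and 160 CPM (log2 ratio -1.11, -1.47 to -0.76), so genes of 1 axis lay on both sides. Esm1, a secreted proteoglycan, had 17.4 and 49.1 CPM (log2 ratio -1.48, -2.26 to -0.79).

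Other ganglion classes had their own named genes. In endothelial-like cells Stc1, an inhibitor of PAPP-A, had 39.2 and 164 CPM in 1NMPP1 and vehicle (log2 ratio -2.06, -2.49 to -1.67), and Ccn2, a secreted matrix protein, had 240 and 71.0 CPM (1.75, 1.50 to 2.01). In satellite glia-like cells Igf2bp2, which binds Igf2 mRNA, had 21.7 and 61.9 CPM (-1.50, -1.95 to -1.10), and Ccn1, a relative of Ccn2, had 714 and 343 CPM (1.06, 0.97 to 1.14). Ccn2 was thus the higher in 1NMPP1 in endothelial-like cells, whereas it had 2.93 and 8.06 CPM in satellite glia-like cells (-1.37, -2.83 to -0.35); the difference between these classes was not tested. In sensory neuron-like cells Pappa2, a protease of binding proteins, had 0.617 and 3.22 CPM (-2.28, -3.90 to -1.16). In macrophage-like cells 7 of 8 PI3K and AKT genes were higher (median log2 ratio 0.42, against 0.05 for all genes), a tally close to that of several ganglion classes, such as 8 of 9 in monocyte-like cells and 7 of 9 in satellite glia-like and sensory neuron-like cells. Pik3ca, which encodes a catalytic subunit of PI3K, had in macrophage-like cells 99.2 and 39.3 CPM (1.33, 0.55 to 2.14).

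In growth plate, chondrocyte-like cells had 219 and 441 CPM of H19 in 1NMPP1 and vehicle (log2 ratio -1.01, -1.17 to -0.85). The log2 ratio was -0.48 (-0.78 to -0.20) in male-called cells (251 and 351 CPM) and 0.40 (-0.06 to 0.91) in female-called cells (178 and 134 CPM). Both lie above the -1.01 of the class, which also holds cells with no sex call that were not counted apart. Their clusters were not alike in H19, with 124 and 436 CPM in the largest, 33.8 and 739 CPM in that with Ibsp, and 502 and 212 CPM in the smallest. Of their 9 PI3K and AKT genes 4 were higher and 5 lower, with 0 past 2-fold. In neutrophil-like cells, which held most Igf1r, 8 of 9 PI3K and AKT genes were higher and 0 past 2-fold, with a median log2 ratio of 0.15 against 0.05 for all genes. In macrophage-like cells Gab1, an adaptor, had 34.6 and 86.6 CPM (-1.29, -2.28 to -0.44), on the same side as Igf1r there.

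The genes whose levels over the 35 classes were most like those of each member were, as a description in which a few high classes weigh most, Mfap4, Sfrp4 and Medag for Igf2 (r = 0.98 each), Rnase4 for Igf1 (0.83), Syne1 for Igf1r (0.72), Cyp2d22 for Igfbp3 (0.96), Lrp5 for Igfbp4 (0.79), Dact1 for Igfbp5 (0.92), Sfrp4 for Igfbp6 (0.93) and Ptprk for Igfbp7 (0.92). Mfap4 and Sfrp4 encode matrix and secreted proteins of fibroblasts. Igfbp2 did not reach 50 CPM in any of these 35 classes and was not compared.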

How the data were processed

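The deposited counts are raw UMIs of each gene in each barcode of 2 growth plate and 2 ganglion libraries; per the file headers, the authors made them in Cell Ranger 7.2.0, on mm10, per the submitters' processing notes, with no barcode under 500 UMIs. The libraries held 139703885 and 102692919 UMIs in growth plate and 32790205 and 57303037 in ganglia, in 1NMPP1 and vehicle. Added vector and reporter sequences were left out of the 32285 genes.

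Barcodes with under 200 genes or over 20% mitochondrial UMIs were removed, then those with the highest doublet scores (Scrublet, 0.8% per 1000 barcodes: 1115, 731, 55 and 108 barcodes). Scrublet's own threshold marked 943, 940, 11 and 3. The libraries of a pair shared 40 barcodes in growth plate and 4 in ganglia. Cells were clustered per tissue with scanpy 1.11.5 (2000 variable genes without the members and listed genes, 30 components, 20 neighbours, Leiden resolution 1). A cluster was named from at least 3 markers, by a rule set after the clusters were seen; clusters of few UMIs are called shallow. UMIs were summed per class and library and given as CPM with exact Poisson intervals, shares with Clopper-Pearson intervals, and ratios (0.5 UMI added) with exact conditional intervals, all at 95% with scipy 1.17.1. They cover counting error only. The upper limit at 0 UMIs is 3 counts. The script was tested on simulated data. A group is 1 library, so there was no test, and a ratio of 2 or more, on at least 20 UMIs, is called 2-fold.

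All 10 members are named. The 3 genes of most similar pattern were sought by Pearson correlation of log2(CPM + 10) over classes of at least 50 cells. Locations are from GENCODE M21, promoters from RefSeq (GRCm38.p6). Alternatives were other filters, clustering, sex-called cells, the largest cluster, thinning, weights, scaling and UMI minimums. The members, lists and tests were chosen with earlier results of these data known. The values of the targeted kinase are not reported here.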

Additional observations from a re-analysis of the deposited data

Results flagged for a closer look

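Igfbp4 went in opposite directions in the 2 parts of the ganglion fibroblast-like cells. Its log2 ratio of 1NMPP1 over vehicle was 0.66 in the Apod and Lum cluster (55 and 62 cells) and -1.50 in the Sfrp4 and Mgp clusters (64 and 51 cells). With 1 library per group the difference between the 2 parts was not tested. Of the vehicle UMIs in the second part, 463 of 1030 were in 7 cells.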

How the results depend on the processing

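The count of members 2-fold apart depended on most settings. In growth plate, members at least 2-fold higher in 1NMPP1 numbered 1 as reported, 3 with no doublets removed, 5 with each library clustered on its own, 4 in male-called cells, 0 in the largest cluster of each class, 2 with each cell weighed alike and 13 with no minimum of UMIs. Those at least 2-fold lower numbered 4, against 8 with no doublets removed, 1 in male-called cells, 2 in the largest cluster, 1 after thinning to 1000 UMIs per cell and 15 with no minimum. In ganglia, 4 were higher, against 8 in male-called cells, 1 after thinning, 2 at 50 or more UMIs, 23 with no minimum and 2 without the cell with the most UMIs, a setting chosen after seeing the data. Lower were 6, against 1 in female-called cells, 2 in the largest cluster, 1 after thinning, 2 at 50 or more UMIs and 15 with no minimum. Of 262 levels under alternatives, each in the class where the member was highest, 110 lay outside their interval. With each cell weighed alike 24 levels did, against 9 that did not. Of 33 shares of cells, 30 left their interval after thinning to 1000 UMIs per cell. Of 168 counts of list genes past 2-fold, 64 moved. Of 643 log2 ratios under alternatives, 500 moved by less than their interval, 132 by more, and 11 reversed. In the largest cluster of the class, the reversed ones were Igf1 in growth plate B cell-like cells (-1.26), Igfbp4 in T cell-like cells (1.59), Igfbp5 in ganglion endothelial-like cells (1.39) and Igf2 in ganglion fibroblast-like cells (-0.37, on 4 and 8 UMIs of the Apod and Lum cluster). In male-called cells they were Igf1 in chondrocyte-like cells (2.07) and Igfbp6 in growth plate neutrophil-like cells (1.68). With separate clustering they were Igfbp7 in sensory neuron-like cells (1.53) and Igfbp5 in shallow neuron-like barcodes (1.04). In the same barcodes, Igf2r (-2.31) and Igfbp7 (-0.59) reversed with each cell weighed alike, and Igfbp7 (-1.55) without its top cell. The cause was not tested. Under the other alternatives Igf2 in ganglion fibroblast-like cells lay between 1.82 in female-called and 3.46 in male-called cells. No paired analysis was possible because each group has 1 library, and for the same reason no replicate could be left out.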
